A study of Rattus norvegicus with 12 samples.

Results

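The Slc25 family, the carriers that move metabolites across the inner mitochondrial membrane, was described in PC12 cells, a line from a rat adrenal pheochromocytoma, during the first 120 min with the neuropeptide PACAP38. Its members were taken by name: every gene probe of the arrays whose gene name is Slc25a followed by a number, which gave 44 genes of the 33212 names on the arrays and 69 of the 41012 probes. Slc25a25, with 2 probes, was set beside the other 43 genes, with 67 probes. PC12 cells, all of this one line, received 0.1 µM PACAP38 for 5, 10, 15, 30, 60 or 120 min, and each had a control of the same time point, which the labels describe only as control. RNA from PC12 cells (n = 6) was pooled for each treatment and time point. A pair of dye-swapped arrays with 2 colours carried both pools, with PACAP38 labelled by Cy5 on the first array and by Cy3 on the second. Since the pair shares its pools, a time point counts as 1 replicate, and a single time point allowed no test of PACAP38 against its control. Where an error would stand, both folds are shown for the counted carriers and for some others, and elsewhere only their mean. A lower share of cells with a transcript and less RNA per cell cannot be told apart in such pools.

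Slc25 proteins are nuclear-encoded and share a fold of repeated membrane helices. Most of them exchange one solute of the matrix for one of the intermembrane space: ADP for ATP, phosphate, keto acids, amino acids, cofactors or iron. Slc25a23, Slc25a24, Slc25a25 and Slc25a41 exchange ATP-Mg for phosphate, which changes the total adenine nucleotides of the matrix, and the first 3 of them carry calcium-binding EF-hands on the side of the intermembrane space. PACAP38 acts on receptors that raise cyclic AMP and calcium, and in chromaffin cells, from which PC12 cells derive, it is known as a secretagogue.

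Sequences of Slc25a25, Slc25a33 and Slc25a23 are given first, as descriptions to which no fold was tied by a test. The upstream sequence of Slc25a25 holds the full cyclic AMP response element, the palindrome TGACGTCA bound by CREB. It was shown because Slc25a25 was the carrier with the highest folds, and that of Slc25a33, a pyrimidine nucleotide carrier, because it is the other carrier found with the same letters. Both are the 250 bases before the RefSeq transcript start on build GRCr8, at chr3:36116582-36116831 and chr5:165502974-165503223, both on the minus strand, with the element in capitals.
Slc25a25: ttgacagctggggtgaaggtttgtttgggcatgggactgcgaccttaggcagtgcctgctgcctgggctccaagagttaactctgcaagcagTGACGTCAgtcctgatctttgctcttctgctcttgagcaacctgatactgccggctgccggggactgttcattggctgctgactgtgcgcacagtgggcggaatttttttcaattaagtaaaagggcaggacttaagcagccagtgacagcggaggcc
Slc25a33: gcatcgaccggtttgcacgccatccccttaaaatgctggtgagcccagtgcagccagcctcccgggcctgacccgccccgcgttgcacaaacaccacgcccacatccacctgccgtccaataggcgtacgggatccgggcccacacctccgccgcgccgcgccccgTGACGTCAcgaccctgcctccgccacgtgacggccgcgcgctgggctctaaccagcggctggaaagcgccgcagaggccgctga
The element began 158 bases before the start of Slc25a25 and 84 bases before that of Slc25a33. RefSeq upstream sequences were at hand for 37 of the 44 carriers, and 2 of the 37 (5.41%) held TGACGTCA, beside 531 of 33469 (1.59%) over all RefSeq upstream windows of the same length. The shorter CGTCA, searched on both strands and also contained in the full element, was in 9 of the 37 (24.3%) and in 6097 of the 33469 (18.2%). Slc25a33, with the full element, had log2 folds of -0.13 at 60 min and -0.14 at 120 min on its brighter probe, and was not counted at any time. Its folds on both arrays of 120 min were 0.714 and 1.16, which differ in direction. The carriers with CGTCA were Slc25a1, Slc25a3, Slc25a10, Slc25a13, Slc25a16, Slc25a25, Slc25a33, Slc25a38 and Slc25a40.

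One of the Slc25a25 probes lies in a stretch that resembles a close relative, so it was set beside the most similar probe of any other family member, that of Slc25a23. Capitals mark the bases that differ where the probes overlap.
Slc25a25 probe A_44_P527238: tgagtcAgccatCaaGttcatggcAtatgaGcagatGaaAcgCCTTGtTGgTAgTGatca
Slc25a23 probe A_44_P293226: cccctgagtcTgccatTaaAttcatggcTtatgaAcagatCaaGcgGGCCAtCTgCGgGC
Over the 56 bases in which they overlap, 38 were the same and 18 differed. The Slc25a23 probe was well above background in neither RNA on any of the 12 arrays. The second and brighter Slc25a25 probe, A_42_P506402, had at most 50% of its bases in common with any other family probe, aligned without gaps over at least 40 bases.

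Which carriers PC12 cells held was read from the control RNA. Signals well above background, as the scanner software calls them, were found in the control RNA for 44 of the 69 probes on both arrays of some time point, and for 38 probes of 28 genes on all 12 arrays. Another 20 probes were well above background in neither RNA on any array. No probe of 12 genes was: Slc25a18, a glutamate carrier, Slc25a21, Slc25a23, Slc25a27, Slc25a34, Slc25a37, Slc25a41, Slc25a44, Slc25a45, Slc25a47, Slc25a48 and Slc25a54. Among the calcium-regulated ATP-Mg carriers only Slc25a24 and Slc25a25 were therefore measured, and of both mitoferrins, the iron carriers, Slc25a28 was measured and Slc25a37 was not.

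The arrays themselves set the frame. The share of spots well above background ran from 38.3 to 49.6% over the arrays for the control and from 39.7 to 48.9% for PACAP38, and none was saturated. The labelled cell type was borne out by chromaffin markers: 9 of 9 marker genes, among them Th, Dbh and Chga, were well above background in the control RNA by the same measure. Of 9 markers of other cell types, Alb, Cd3e, Gfap, Krt5, Pecam1 and Ptprc were never well above background, while Col1a1, Col1a2 and Pdgfra were. The immediate early genes Fos, Junb, Nr4a1 and Nr4a2 were 4 of 4 counted as higher at each time from 10 min on and 0 of 4 at 5 min.

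Slc25a25 was the carrier with the highest fold at 60 and at 120 min. Its brighter probe (rn4, chr3:11539507-11539566, base 2984 of the transcript) was well above background in both RNAs on all 12 arrays. The processed signals are in arbitrary units and are comparable within an array. At 5 min the control gave 2612 and 2416 and PACAP38 2281 and 2435, each time with PACAP38 in Cy5 first and in Cy3 second. At 10 min the control gave 2422 and 1960 and PACAP38 2227 and 2017. At neither time did PACAP38 lie on the same side of the control on both arrays.

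At 15 min the control gave 2521 and 2192 against 2417 and 2608 with PACAP38, and both RNAs still overlapped. PACAP38 was above the control on both arrays from 30 min on, with 3406 and 4016 against 2304 and 2220. The signals at 60 min were 9157 and 9893 with PACAP38 against 2764 and 2753 in the control. They reached 23608 and 24157 at 120 min, against 4385 and 4454 in the control.

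**Figure D1:**
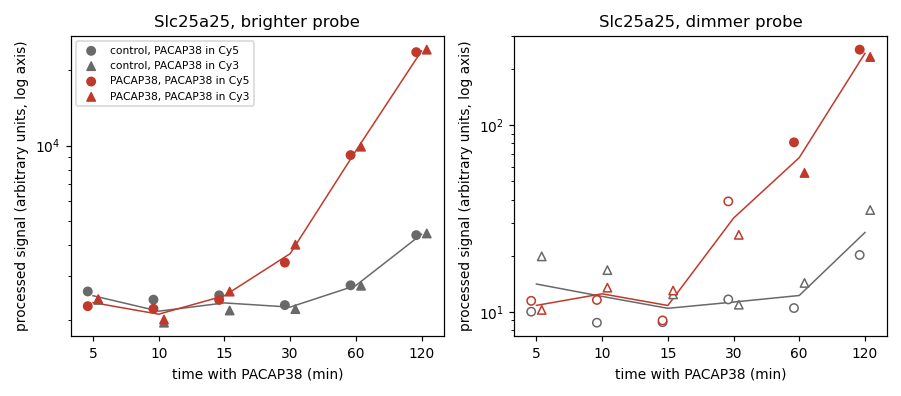
Processed signal of both Slc25a25 probes (log axis, arbitrary units) against the time with PACAP38 in min. Each symbol is 1 array (circles, PACAP38 in Cy5; triangles, PACAP38 in Cy3), filled where the signal was well above background, and lines join the geometric means of both arrays. On the brighter probe PACAP38 lies above the control on both arrays from 30 min on. The dimmer probe has no control signal well above background on any of the 12 arrays, and its PACAP38 signal is well above background only at 60 and 120 min.

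These signals were folds of PACAP38 over control of 1.48 and 1.81 at 30 min and of 3.31 and 3.59 at 60 min. The final time point gave 5.38 and 5.42. The mean log2 fold of both arrays, in the order of the 6 time points, was -0.09, -0.04, 0.09, 0.71, 1.79 and 2.43. Both arrays differed least at 120 min. Of the 15294 probes measured in both RNAs at 30 min, 148 had a higher log2 fold than Slc25a25, or 0.968%. The corresponding shares were 0.729% of 17143 probes at 60 min and 0.795% of 15720 probes at 120 min.

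The dimmer Slc25a25 probe (rn4, chr3:11542324-11542639, base 864 of the transcript) spans 316 bases of the genome with 60 bases of probe, so by these coordinates its target is interrupted in the genome. Its control signal was well above background on 0 of 12 arrays and its PACAP38 signal on 4, those of 60 and 120 min. PACAP38 gave 81.0 and 55.5 at 60 min and 254 and 232 at 120 min. Since the control was not measured, only a lower bound holds: the 60 min signal with PACAP38 was at least 1.1-fold higher than the control, and that of 120 min at least 1.29-fold. These bounds lie below the folds of the brighter probe, with the same direction.

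The count of changed probes asked for a fold of at least 2 (higher) or at most 0.5 (lower) on each array of the pair, together with a spot p-value from the scanner software below 0.01 on each. Counted higher were both Slc25a25 probes and no other of the 69 at 60 min, beside 357 of all 41012 probes (0.87%), and again at 120 min, beside 799 of all probes (1.95%). The dimmer of them met the count against a control that was not measured. Counted lower were 0 of 69 at 60 min, beside 154 of all probes (0.375%), and 3 of 69 at 120 min, beside 626 of all probes (1.53%). With normexp and either loess or median centring the count of 3 was 0. From 5 to 30 min no Slc25 probe was counted in either direction, at times when few probes of the arrays were. By one array alone, 2 Slc25 probes were counted higher and 1 lower at 5 min, 1 in each direction at 10 min, and 1 lower at 15 and again at 30 min, none of them with both RNAs well above background, and without the p-value limit 1 was higher at 30 min, the dimmer Slc25a25 probe, measured in neither RNA there. In the order of the first 4 time points, 0%, 0.0658%, 0.0902% and 0.249% of all probes were counted higher, and 0%, 0%, 0.0268% and 0.102% lower. At 30 min the brighter Slc25a25 probe passed the p-value limit on both arrays but not the fold limit.

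Signals of one array were set on a common scale by taking the log2 signal minus the 75th percentile of the same RNA on that array. On that scale the control level of Slc25a25 stayed between 3.43 and 3.82 over the 6 time points. Its PACAP38 level ran from 3.48 at 10 min to 6.26 at 120 min, a range of 2.78. The other 37 probes measured in the control on all 12 arrays had a median range of 0.34 in the control and 0.54 with PACAP38, where the highest was 1.47, that of Slc25a32.

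**Figure D2:**
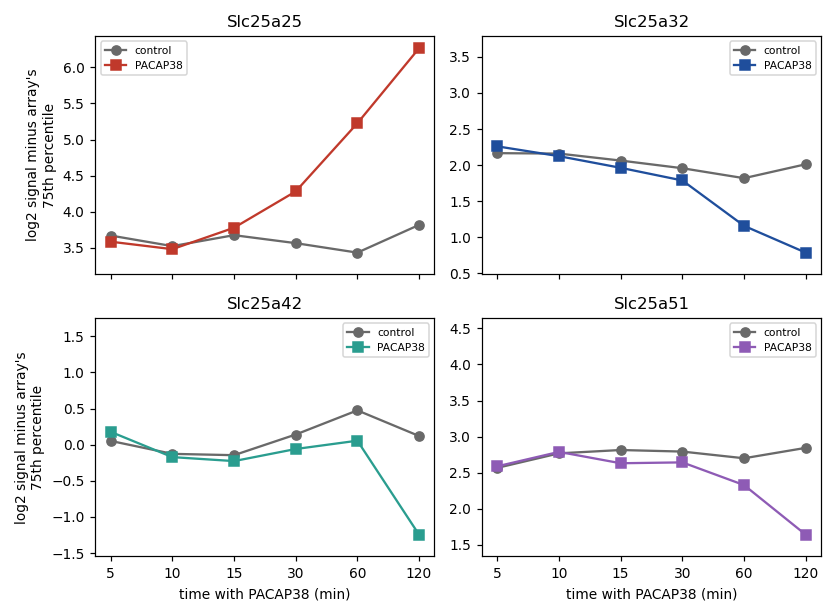
Scaled level (log2 signal minus the 75th percentile of that RNA on the array, mean of both arrays) of the control and of PACAP38 against time in min, for Slc25a25, Slc25a32, Slc25a42 and Slc25a51, with y axes of equal length. The Slc25a25 level with PACAP38 climbs to 6.26 at 120 min while its control stays between 3.43 and 3.82, and the other 3 carriers lie below their controls at 120 min.

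The 3 carriers counted lower at 120 min transport cofactors or their precursors. Their substrate group of 9 genes did not share one direction, and its log2 folds ran up to 0.59 at that time, for Slc25a16. Slc25a32 carries folate and FAD, Slc25a42 carries coenzyme A, and Slc25a51 carries NAD. All 3 were well above background in both RNAs on all 12 arrays.

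For Slc25a32 (probe A_44_P866982, rn4, chr7:74651033-74651092) the control gave 1366 and 1171 at 120 min and PACAP38 547 and 527, folds of 0.400 and 0.450. At 60 min the folds were 0.640 and 0.622, with signals of 557 and 579 against 871 and 932. The dye-averaged log2 fold was 0.09, -0.03, -0.11, -0.18, -0.67 and -1.24 from the first to the last time point. The second Slc25a32 probe, A_44_P201796, had folds of 0.577 and 0.625 at 120 min and 0.833 and 0.748 at 60 min. Both probes thus had the same direction, and only the brighter one passed the fold limit.

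For Slc25a42 (probe A_44_P637482, rn4, chr16:19719942-19720001) the control gave 350 and 332 at 120 min and PACAP38 137 and 125, folds of 0.392 and 0.376. Its log2 fold was -0.43 at 60 min and -1.38 at 120 min, after values between -0.21 and 0.12 up to 30 min. The second Slc25a42 probe was well above background in the PACAP38 RNA on neither array of 120 min and in the control on 1, which leaves no fold to give.

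For Slc25a51 (probe A_44_P834809, rn4, chr5:61955299-61955358) the control gave 2505 and 2025 at 120 min and PACAP38 1106 and 851, folds of 0.441 and 0.420. Its log2 fold was -0.38 at 60 min and -1.22 at 120 min. The files hold 4 more probes of this gene under its older name Mcart1, matched by RefSeq accession and outside the 69. None of them was counted at any time. The pair measured in both RNAs on all 12 arrays had folds of 0.668 and 0.707 (A_44_P438667) and of 0.869 and 0.618 (A_44_P792035) at 120 min. A_44_P538831, well above background on 11 arrays in each RNA, had 0.540 and 0.942, and the PACAP38 signal of the last was well above background on no array. All 3 measured ones thus had the direction of A_44_P834809 with smaller changes, so the count of Slc25a51 rests on 1 probe of 5. On the scaled levels of A_44_P834809, PACAP38 went from 2.59 at 5 min to 1.64 at 120 min while the control went from 2.57 to 2.85. The control level of Slc25a32 was 2.17 at 5 min and 2.01 at 120 min, and that of Slc25a42 was 0.05 and 0.12. Over all time points these control levels ran from 1.82 to 2.17 for Slc25a32 and from -0.15 to 0.48 for Slc25a42. Under background correction by normexp the folds at 120 min were nearer to 1: 0.540 for Slc25a32, 0.699 for Slc25a42 and 0.515 for Slc25a51 with loess, and 0.469, 0.649 and 0.444 with median centring.

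The rest of the family stayed within smaller folds. At 60 min, 30 carriers had both RNAs of their brightest probe well above background on both arrays. After Slc25a25 the highest there were Slc25a16 (log2 fold 0.46), which is tied to coenzyme A in mitochondria, Slc25a40 (0.21), a relative of the glutathione carrier Slc25a39, the glutamate carrier Slc25a22 (0.21) and the phosphate carrier Slc25a3 (0.20). The lowest were Slc25a32 (-0.67), Slc25a42 (-0.43), Slc25a51 (-0.38), mitoferrin 2 or Slc25a28 (-0.37) and Slc25a29 (-0.25), which carries basic amino acids. Slc25a22 had folds of 1.37 and 0.979 on both arrays, which differ in direction.

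At 120 min, with 29 such carriers, the highest after Slc25a25 were Slc25a24 (log2 fold 0.62), Slc25a16 (0.59), Slc25a22 (0.53) and Slc25a3 (0.44). Their folds on both arrays were 1.41 and 1.68, 1.58 and 1.44, 1.67 and 1.24, and 1.38 and 1.33, each above 1 on both arrays and none counted. Below the 3 counted carriers in size came Slc25a46, a protein of the outer membrane, with folds of 0.559 and 0.679, and Slc25a28, with 0.779 and 0.536. Slc25a46 passed the p-value limit on both arrays.

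**Figure D3:**
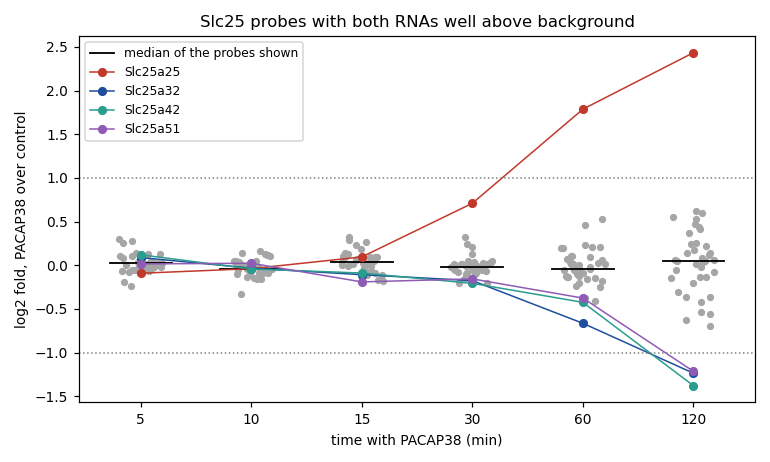
Log2 fold of PACAP38 over control (mean of both arrays) against time in min for the Slc25 probes with both RNAs well above background on both arrays; grey points are single probes of other genes, bars the median of the probes shown, coloured lines the brightest probe of 4 named genes, and dotted lines a fold of 2 and 0.5. Slc25a25 reaches 2.43 at 120 min, and Slc25a32, Slc25a42 and Slc25a51 end between -1.38 and -1.22.

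Over all Slc25 probes with at least 1 RNA well above background on both arrays, the median log2 fold was -0.03 at 60 min (47 probes) and 0.05 at 120 min (46 probes). Over all probes of the arrays so measured it was -0.02 and -0.03. The middle of the other Slc25 probes, from the lower to the upper quartile, ran from -0.16 to 0.07 at 60 min and from -0.36 to 0.24 at 120 min. All probes of the arrays gave -0.16 to 0.11 and -0.36 to 0.24.

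**Figure D4:**
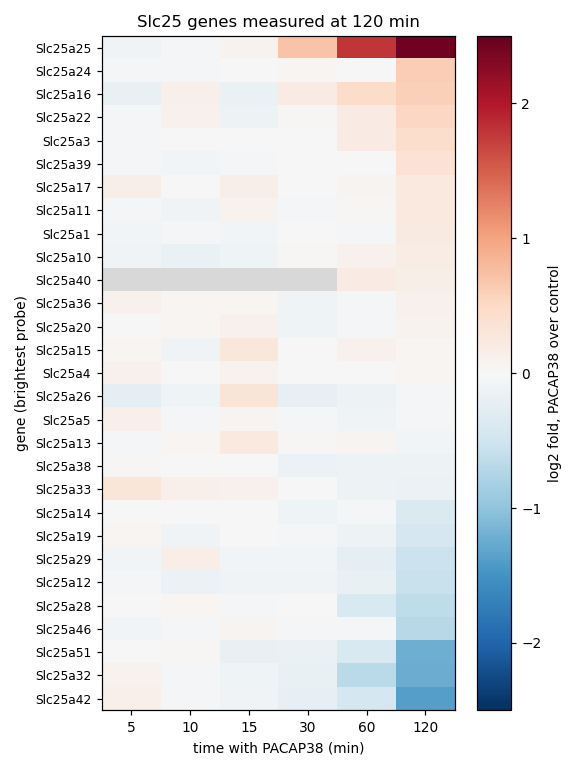
Log2 fold of PACAP38 over control (colour, red above and blue below 0, mean of both arrays) for the 29 Slc25 genes measured at 120 min, 1 row per gene by its brightest probe, against time in min, ordered by the value at 120 min; grey cells had an RNA not well above background. The row of Slc25a25 turns red from 30 min on, and Slc25a32, Slc25a42 and Slc25a51 are the darkest blue at 120 min.

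The substrate groups were then read one by one. Of the ATP-Mg carriers, Slc25a24 had control signals of 6126 and 4956 at 120 min and PACAP38 signals of 8609 and 8307, but 3957 and 4314 against 3878 and 4490 at 60 min, where both RNAs overlapped. Its second probe and those of Slc25a23 and Slc25a41 were not well above background in either RNA. The adenine nucleotide group was 3 genes with 7 probes. Slc25a4 and Slc25a5, which trade ADP for ATP, had 3 probes each, and the other gene was the peroxisomal Slc25a17. None of the 7 probes was counted at any time. Over all probes at most 1.95% were counted in one direction at any time, so a group of this size would hold few calls. The log2 folds of the group lay between -0.14 and 0.06 at 60 min and between -0.05 and 0.25 at 120 min. The value at 120 min was 0.04 to 0.14 for the Slc25a4 probes, -0.05 to 0.07 for those of Slc25a5 and 0.25 for Slc25a17.

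Among the carriers of phosphate, pyrimidine nucleotides, NAD and cofactors, 3 of 17 probes in 9 genes were counted lower at 120 min, beside 1.53% of all probes, and 0 with normexp and either loess or median centring. No test was made of the group. Their log2 folds ranged from -1.38 to 0.59 at 120 min, with Slc25a16 at the upper end. The citrate, dicarboxylate and oxoglutarate carriers Slc25a1, Slc25a10 and Slc25a11 had a brightest-probe log2 fold of 0.22, 0.18 and 0.24 at 120 min. The folds on both arrays were 1.34 and 1.01 for Slc25a1 and 1.176 and 1.185 for Slc25a11. Those of Slc25a10 were 1.38 and 0.929, which differ in direction. Of the glutathione-related carriers, Slc25a39 had log2 folds of 0.41 and 0.37 over its 2 probes, and Slc25a40 had folds of 0.806 and 1.5 on its 2 arrays, which differ in direction. The aspartate-glutamate carriers, which like Slc25a25 bind calcium, gave -0.56 for Slc25a12 and -0.08 for Slc25a13. The folds on both arrays were 0.702 and 0.654 for Slc25a12. Those of Slc25a13 were 0.887 and 1.02, which differ in direction. None of these was counted, at a time when 1.95% of all probes were counted higher and 1.53% lower.

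Probes of 1 gene did not always have the same sign. Of 10 genes with several probes measured in both RNAs at 120 min, 7 had 1 sign over all of them. Slc25a12 gave -0.56 and 0.01, Slc25a10 gave -0.31 and 0.18, and Slc25a5 lay between -0.05 and 0.07. Slc25a36, a pyrimidine nucleotide carrier, had 0.12 on its brightest probe and up to 0.55 on another, which gave folds of 1.51 and 1.38 at 60 min.

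A trend with time was tested over the 6 time points, with limma, as the straight-line slope of the dye-averaged log2 fold on log2 time. The test covered the 20264 probes well above background in at least 1 RNA and does not ask whether a change was steady. The slope rose for 106 probes (0.523%) and fell for 41 (0.202%) at an adjusted p below 0.05. Of the 47 Slc25 probes tested, the brighter Slc25a25 probe rose and none fell. The dimmer Slc25a25 probe also met the threshold, but its ratios stand over a control that was not measured, so no slope is read from it. In all, 17 of the 47 had an unadjusted p below 0.05, beside 5813 of all probes tested. The brighter Slc25a25 probe had a slope of 0.60 in log2 fold per doubling of time (SE 0.077, limma adjusted p = 0.0449). That slope is an average. The log2 fold lay between -0.09 and 0.09 up to 15 min and was 0.71, 1.79 and 2.43 at 30, 60 and 120 min.

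The call of the brighter Slc25a25 probe depended on the processing and on the time points. Its limma adjusted p was 0.0548 with normexp and loess and 0.0879 with normexp and median centring. With one dye orientation it was 0.0545 to 0.0670, with dim probes kept in the test 0.0898, and with time in minutes 0.00416. For the brighter probe the limma adjusted p was 0.0299 without 5 min, and without 10, 15, 30, 60 or 120 min it was 0.147, 0.0991, 0.0616, 0.128 and 0.207. The slope itself was 0.73 without 5 min and 0.52 to 0.61 without each of the others, where 1 probe of the whole array was called without 60 min and 0 without 10, 15, 30 or 120 min. With slide as a block the slope was 0.44 (SE 0.163, limma adjusted p = 0.895), and 0 of 20256 probes were called, with 947 at an unadjusted p below 0.05. Each of the 3 slides carried 2 neighbouring time points, so differences between slides and between their times cannot be told apart. Within slides the log2 fold differed by 0.05 between 5 and 10 min, by 0.61 between 15 and 30 min and by 0.65 between 60 and 120 min. Slc25a32 had a slope of -0.28 (SE 0.049, limma adjusted p = 0.0675), Slc25a42 of -0.28 (SE 0.064, adjusted p = 0.0824) and Slc25a51 of -0.23 (SE 0.061, adjusted p = 0.0913), and none of these passed the threshold.

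The genes whose folds ran most like those of Slc25a25 were sought among 1855 other probes measured in both RNAs on all 12 arrays with a log2 range of at least 1. Pearson's r over the 6 dye-averaged log2 folds was 0.999 for Syt4, a synaptotagmin of secretory vesicles, 0.999 for Btg1, an antiproliferative factor, 0.999 for Gtpbp6, a GTP-binding protein, 0.999 for the phosphatase Ptp4a1 and 0.998 for Polr1h, a subunit of RNA polymerase I. These r values share the 6 time points and the control pools, and 41 of the 1855 probes had an r of at least 0.99. At 120 min the folds were 14.5 for Syt4, 11.1 for Ptp4a1, 6.01 for Btg1, 3.20 for Gtpbp6 and 2.25 for Polr1h, beside 5.40 for Slc25a25.

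Other mitochondrial transport genes were looked at from lists of their own. The genes of mitochondrial calcium uptake and release, 7 genes with 12 probes, had 0 probes counted at any time. So had the porins and pyruvate carrier (8 probes), the import machinery of carrier proteins (11 probes) and the family members named otherwise (10 probes of Ucp1, Ucp2, Ucp3, Mtch1, Mtch2 and Mcart1, the older name of Slc25a51). None of the 34 probes of these lists in the slope test passed it. Over all probes at most 1.95% were counted in one direction at any time and 147 of 20264 passed the slope test, so lists of this size would hold few calls at those rates and the zeros say nothing particular about them. At 120 min the median log2 fold of these 4 lists lay between -0.28 and 0.11. Nearest to the fold limit was Slc8b1, the mitochondrial sodium-calcium exchanger, with folds of 0.485 and 0.532 on both arrays. Vdac1, the main porin of the outer membrane, had 1.77 and 1.56, and Timm10, which guides carriers to the inner membrane, had 0.673 and 0.595.

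Markers of other cell types were read beside the carriers at 120 min. The summed scaled signal of the 17 probes of that list was 1.81 in the control and 1.56 with PACAP38, and over all time points it ran from 1.76 to 1.87 in the control and from 1.56 to 2.07 with PACAP38. None of these probes was counted. At that time Pdgfra had folds of 0.400 and 0.523, Col1a1 of 1.32 and 1.01, and Col1a2 of 0.427 and 0.994. The part of these markers in the carriers counted lower was not tested.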

How the data were processed

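RNA of PC12 cells was measured on 12 Agilent whole rat genome arrays with 2 colours, 2 dye-swapped arrays of the same pools per time point, on 3 slides. Scanning and signal extraction were done by the authors with Agilent Feature Extraction, version 12.0.3.1 per the file headers and 11.0.1.1 by the submitters' processing notes. As deposited, the processed intensity of each channel was background-subtracted and LOWESS dye-normalized by the authors' software. The deposited mean and background intensities are scanner values. The deposited table holds the log10 ratio of Cy5 over Cy3, the same measure as the ratio of the processed intensities. The deposited p-value of a spot belongs to its log ratio. Probe positions are on build rn4.

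Each ratio was turned by dye to PACAP38 over control. The 1639 control spots and 197 to 267 outlier spots per array were left out, and spots of 1 probe were averaged. Slopes were fitted with limma 3.58.1 in R 4.3.3 with Benjamini-Hochberg adjustment, on code tested on simulated data. Lower bounds used normexp (offset 50), loess and Aquantile: the bright RNA's mean over both arrays against, per array, whichever was higher, the dim probe's own signal or the minimum over probes well above background. Tables and figures were made with pandas 2.3.3, numpy 2.4.6 and matplotlib 3.10.9 under Python 3.11.15.

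Named genes were all Slc25a25 probes, all counted Slc25 probes, the 5 highest and 5 lowest carriers at 60 and 120 min by brightest probe, the adenine nucleotide and ATP-Mg carriers, and the 5 genes most like Slc25a25. Slc25a36, Slc25a10, Slc25a11, Slc25a1, Slc25a12, Slc25a13, Slc25a39, and genes of the other lists were named after their values were seen. The members, lists and tests were chosen with earlier results of these data known. RefSeq accessions matched 54 of the 69 probes, with no symbol changed, and 4 probes named Mcart1 matched Slc25a51. The labels do not say how many cultures each pool held beyond n = 6, so p-values measure only the spread over time points. The number of arrays limits the precision. The list of other cell types was planned with 1 more marker, which is not reported here, so its counts and sums are over the remaining 9 genes. Alternatives were other count rules, 1 dye orientation, normexp with loess or median centring, 1 probe per gene, each time point left out, a block for slide and linear time.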

Additional observations from a re-analysis of the deposited data

How the results depend on the processing

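The count of 2 Slc25 probes higher at 60 and at 120 min was 1 in each case with normexp and loess, with normexp and median centring, with both RNAs required well above background, and with 1 probe per gene, since only the dimmer Slc25a25 probe drops out. With a fold limit of 1.5 the count of lower probes was 1 at 60 min. The 3 probes lower at 120 min were 0 with normexp and loess and 0 with normexp and median centring, and the cause was not tested. By one dye orientation alone, the counts were 2 higher and 0 lower at 60 min, and 2 to 3 higher and 3 to 4 lower at 120 min.

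For the dimmer Slc25a25 probe the computed log2 ratios were 1.49, 2.45 and 3.19 at 30, 60 and 120 min, but its control was not measured, nor was PACAP38 at 30 min, and with normexp and loess they were 0.19 and 0.40 at 60 and 120 min, so they are no folds. Its brighter probe gave 2.29 with normexp and loess and 2.09 with normexp and median centring at 120 min. One dye orientation alone gave 0.56 to 0.85 at 30 min, 1.73 to 1.85 at 60 min and 2.43 to 2.44 at 120 min. The median of the Slc25 probes at 120 min was -0.089 with normexp and median centring and -0.033 to 0.029 by dye orientation.

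The slope on log2 time called 2 Slc25 probes, both of Slc25a25 and one of them the dimmer probe, beside 147 of all probes. It called 18 with time in minutes (5343 of all), 0 with slide as a block (0), 0 to 2 with a time point left out (0 to 153), 0 with normexp and loess (27), 0 with normexp and median centring (1), 0 to 1 with one dye orientation (3 to 29) and 0 without the filter on dim probes (0). The adjusted p of the brighter Slc25a25 probe, by limma, was 0.00416 with time in minutes, 0.895 with slide as a block, 0.0548 and 0.0879 with normexp and loess or median centring, 0.0545 to 0.0670 with one dye orientation, 0.0898 without the filter, and 0.0299 to 0.207 with a time point left out. No paired analysis was possible because the labels carry no replicate numbers and each dye-swapped pair shares its pools. Every log2 fold of the brighter Slc25a25 probe at 60 and 120 min kept its direction in these settings. Signal over background limits the dimmer probe and the 20 probes never measured.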
